A study of Homo sapiens with 12 samples.

Results

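HLA class II antigen presentation was followed through 10 genes: HLA-DRA, HLA-DRB1, HLA-DPA1, HLA-DPB1, HLA-DQA1, HLA-DQB1, HLA-DMA, HLA-DMB, CD74 and CIITA. Every probe set annotated to exactly 1 of these genes was taken, which gave 22 of the 22215 probe sets tested. HLA-DQB1 had 7 of them, HLA-DPA1 and CIITA 3 each, HLA-DRA and HLA-DQA1 2 each, and the other genes 1 each. The rule for probe sets is the annotation, although the genes were proposed with results of these data in view. Transcripts were measured on 12 Affymetrix arrays of total RNA from MV4-11, a myelomonocytic leukaemia line, and U937, a monocytic line, both described as acute myeloid leukaemia cells. The 4 groups, with 3 arrays each, were MV4-11 with CHD4 shRNA, MV4-11 with scrambled shRNA, U937 with CHD4 shRNA and U937 with scrambled shRNA. All cells carried a lentiviral pRRL.H1.shRNA vector expressing GFP, the scrambled controls included, and were grown in RPMI with serum. The series description gives the triplicates as biological and asks what depletion of CHD4, the ATPase of the NuRD chromatin remodelling complex, does to the transcriptome. The sample labels spell the target CDH4.

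Class II molecules display peptides from the endosomal pathway to CD4+ T cells. Each is a pair of an alpha and a beta chain (HLA-DR, HLA-DP or HLA-DQ) that is assembled with the invariant chain, CD74, and later loaded in endosomes, where HLA-DM exchanges the invariant chain fragment for antigen peptide. Transcription depends on a conserved promoter module, the X and Y boxes, bound by the RFX complex, CREB and NF-Y, which together recruit the transactivator CIITA. Monocytes and macrophages express class II genes and raise them in response to interferon gamma.

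With CHD4 shRNA, 2 of 3 HLA-DPA1 probe sets and that of HLA-DPB1 were higher in MV4-11. In U937, those of HLA-DRB1, HLA-DRA, HLA-DMA and, for 1 of 3, CIITA were lower. HLA-DPA1 rose by up to 1.55 on the log2 scale in MV4-11, and HLA-DRB1 fell by 0.99 in U937. Only the HLA-DPA1 calls and that of HLA-DRB1 held when any single array was left out. The signals of HLA-DPB1 and HLA-DPA1 211991_s_at were dim, and HLA-DPA1 211990_at was dim except with CHD4 shRNA in MV4-11. The CIITA probe set that fell was dim except with scrambled shRNA in U937. HLA-DMB, HLA-DQA1, HLA-DQB1 and CD74 did not pass in either line without a replicate block. With a block within each line, CD74, 1 HLA-DQB1 probe set and both HLA-DRA probe sets passed in MV4-11. With MV4-11 alone blocked, only the HLA-DQB1 probe set of these did. These blocks also raised the MV4-11 calls over all 22215 probe sets, from 1659 to 3700 and 2912 in that order.

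RefSeq promoter windows on GRCh38.p14, each from 250 bases before to 50 bases after a gene's start, matched 8 of the 10 genes and gave 9 windows. HLA-DRA and CIITA are named only. The 4 windows below belong to the genes that changed and for which a window was matched. They are written 5′ to 3′ along the gene's own strand, with capitals marking 3 short motifs of the class II module: an X box core, CAGCAAC, the adjoining X2 region, TGATGA, and the Y box core, ATTGG, each on either strand. These letters were chosen with the class II promoters known, and no base fell in more than 1 match.
HLA-DRB1 chr6:32589799-32590098, minus strand: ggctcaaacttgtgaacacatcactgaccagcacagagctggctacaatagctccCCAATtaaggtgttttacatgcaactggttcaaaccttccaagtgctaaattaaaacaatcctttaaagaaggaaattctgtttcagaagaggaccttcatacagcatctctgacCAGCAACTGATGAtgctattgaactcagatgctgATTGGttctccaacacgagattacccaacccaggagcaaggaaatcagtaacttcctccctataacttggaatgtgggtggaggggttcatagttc
HLA-DMA chr6:32953048-32953347, minus strand: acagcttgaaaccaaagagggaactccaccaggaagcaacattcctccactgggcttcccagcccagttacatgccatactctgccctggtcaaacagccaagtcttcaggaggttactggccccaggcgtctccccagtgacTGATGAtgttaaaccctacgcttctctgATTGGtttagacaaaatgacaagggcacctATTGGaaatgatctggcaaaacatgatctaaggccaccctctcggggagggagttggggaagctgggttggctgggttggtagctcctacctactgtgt
HLA-DPA1 chr6:33073600-33073899, minus strand: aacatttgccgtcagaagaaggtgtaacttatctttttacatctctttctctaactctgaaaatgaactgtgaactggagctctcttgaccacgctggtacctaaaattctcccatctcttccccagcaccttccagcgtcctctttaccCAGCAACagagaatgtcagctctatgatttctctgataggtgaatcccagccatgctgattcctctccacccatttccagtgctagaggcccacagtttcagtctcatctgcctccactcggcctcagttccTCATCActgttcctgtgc
HLA-DPB1 chr6:33075740-33076039, plus strand: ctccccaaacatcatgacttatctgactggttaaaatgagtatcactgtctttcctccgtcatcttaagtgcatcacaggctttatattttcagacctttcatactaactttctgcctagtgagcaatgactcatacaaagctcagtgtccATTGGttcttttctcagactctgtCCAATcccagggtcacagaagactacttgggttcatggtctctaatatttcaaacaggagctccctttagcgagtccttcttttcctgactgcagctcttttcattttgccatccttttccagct

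The HLA-DRB1 window held all 3 motifs, with the X box core at positions -80 to -74 from the start, the X2 region directly after it and Y box cores at -46 to -42 and, on the opposite strand, at -195 to -191. The HLA-DMA window held the X2 letters and 2 Y box cores, the HLA-DPB1 window 2 Y box cores, and the HLA-DPA1 window shown an X box core at -100 to -94 and the X2 letters after the start. The second HLA-DPA1 window held none of the motifs. Among all 35116 windows of that length in the RefSeq table, the X box core was in 4.915%, the X2 letters in 10.92%, the Y box core in 34.61% and all 3 in 0.2478%. Among the 9 class II windows these counts were 2, 5, 7 and 1. A match is a description of the letters, and a window without one says nothing about binding.

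**Figure D1:**
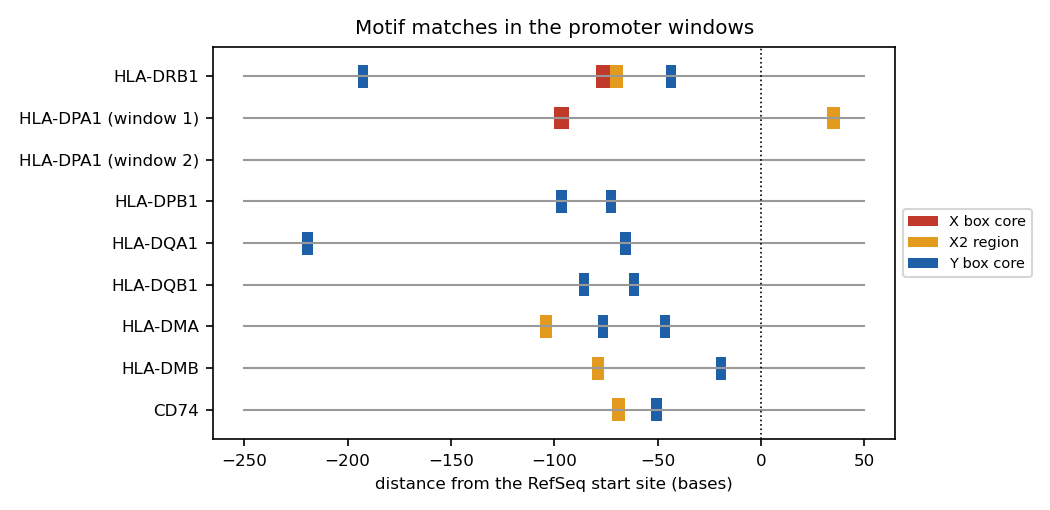
Motif matches in the 9 RefSeq promoter windows of class II genes, by distance from the start site in bases (horizontal axis), with one line per window. Coloured blocks mark the X box core, the X2 region and the Y box core on either strand. The HLA-DRB1 window has all 3, and the second HLA-DPA1 window has none.

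All but 2 of the genes lie in the class II region of chromosome 6. On GRCh38.p14 the RefSeq gene table places HLA-DRA at chr6:32439887-32445046, HLA-DRB1 at chr6:32578775-32589848 and HLA-DMA at chr6:32948618-32953097. HLA-DPA1 (chr6:33064569-33080748) and HLA-DPB1 (chr6:33075990-33089696) run in opposite directions and overlap, so the HLA-DPB1 start lies inside HLA-DPA1. CD74 is on chromosome 5 and CIITA on chromosome 16.

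Values are log2 RMA values, in which background was corrected, arrays were normalised by quantiles and probes were summarised per probe set. All 3 CHD4 probe sets fell in both lines, between 3.36-fold and 4.58-fold (limma adjusted p at most 6.00e-05), and the arrays did not overlap. Of the 8 measured myeloid markers, LYZ averaged 13.24 to 13.73 over the groups and AZU1 9.99 to 11.23. CD4 averaged 7.73 to 8.45, CSF1R 6.88 to 7.24, SPI1 6.40 to 6.54 and ITGAM 6.09 to 8.20. Only MPO, at 5.20 to 5.78, and CD14, at 5.05 to 5.31, stayed within the range of 8 genes of other tissues. The group means of those genes ran from 3.74 to 6.31. Of the class II probe sets, 11 had a group mean above 6.31 and 11 did not. Brightness depends on a probe set's own probes, so this range is a rough guide to dim signal. Background compresses the changes of dim probe sets.

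**Figure D2:**
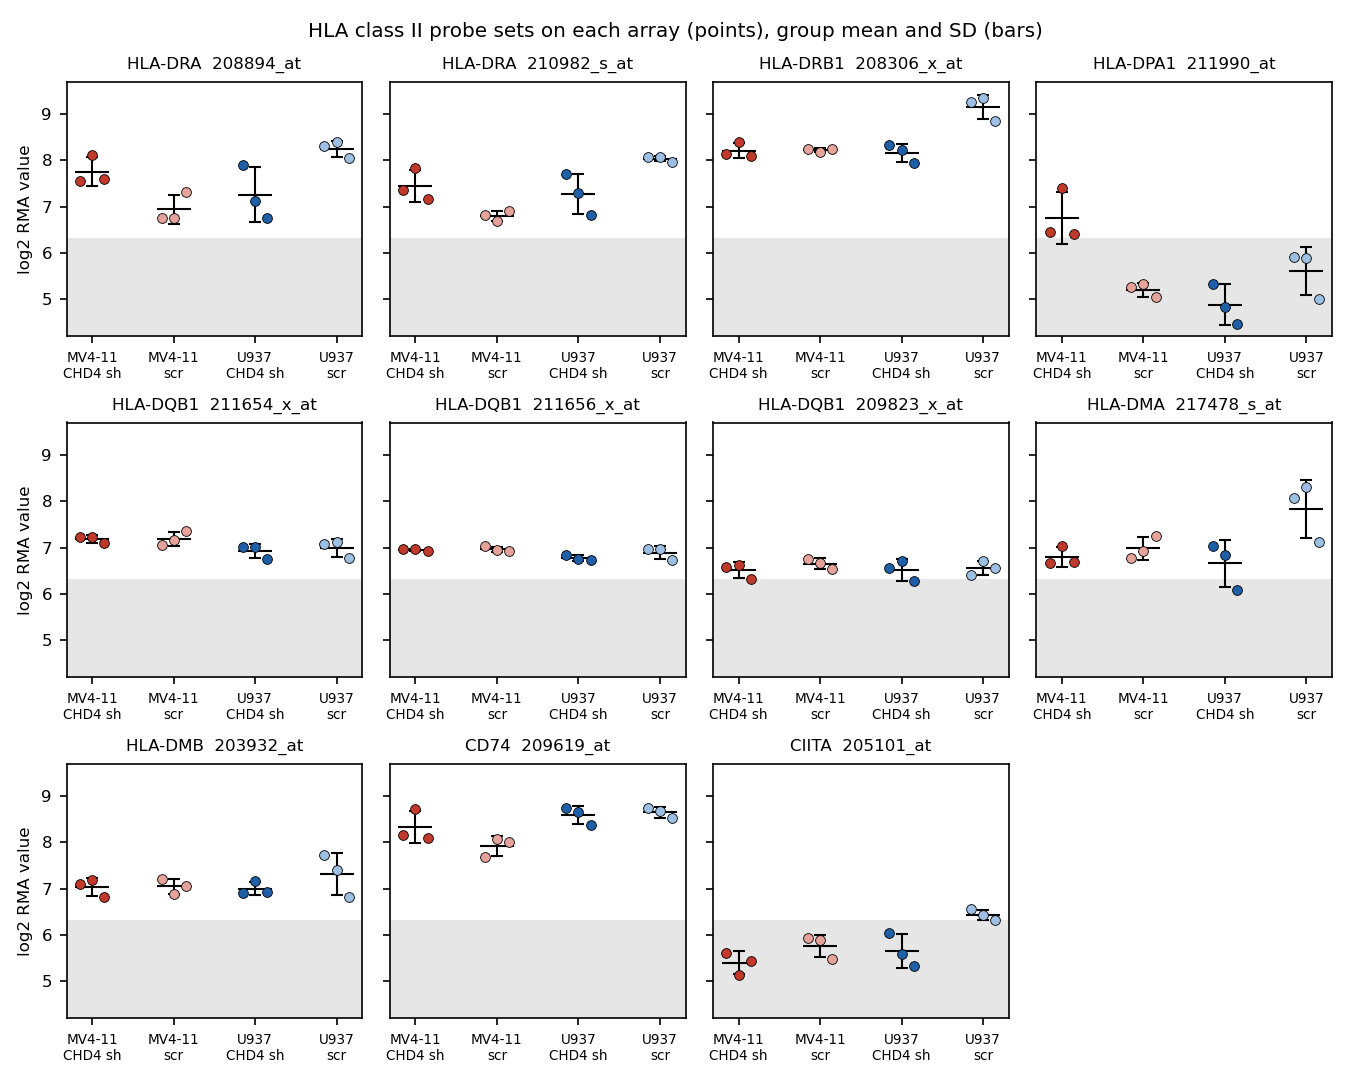
Log2 RMA values (vertical axis) on each array for the 11 class II probe sets with a group mean above the range of other-tissue genes, which is shaded. Points are arrays, horizontal bars are group means and whiskers are SD, with n = 3. The U937 scrambled arrays lie above the other 3 groups for HLA-DRB1 and CIITA 205101_at, and the MV4-11 CHD4 shRNA arrays lie above them for HLA-DPA1.

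In U937, 5 of the 22 class II probe sets fell past an adjusted p of 0.05 and none rose, where 2.65% of all probe sets fell and 1.86% rose (limma, Benjamini-Hochberg over 22215 probe sets). They were the HLA-DRB1 probe set, both HLA-DRA probe sets, HLA-DMA and 1 of 3 for CIITA. The median change of the 22 was -0.19, against -0.0033 over all probe sets, and 20 lay below 0. With the replicate number as a block within each line the count was 6, adding HLA-DPA1 211990_at. Calls in U937 over all 22215 probe sets then went from 1002 to 2151. In bulk RNA, fewer cells expressing a gene and less RNA per cell cannot be told apart.

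In MV4-11, 3 of the 22 rose and none fell, where 3.88% of all probe sets rose and 3.59% fell. They were 2 of the 3 HLA-DPA1 probe sets and HLA-DPB1. The median change was 0.078, against -0.027 over all probe sets. The MV4-11 replicate numbers paired the arrays, which the reported fit does not use. With the replicate number as a block within each line the count was 7. This added both HLA-DRA probe sets, CD74 and an HLA-DQB1 probe set. A block for MV4-11 only gave 4, adding the HLA-DQB1 probe set. Over all 22215 probe sets, calls in MV4-11 went from 1659 to 3700 and 2912 in that order.

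**Figure D3:**
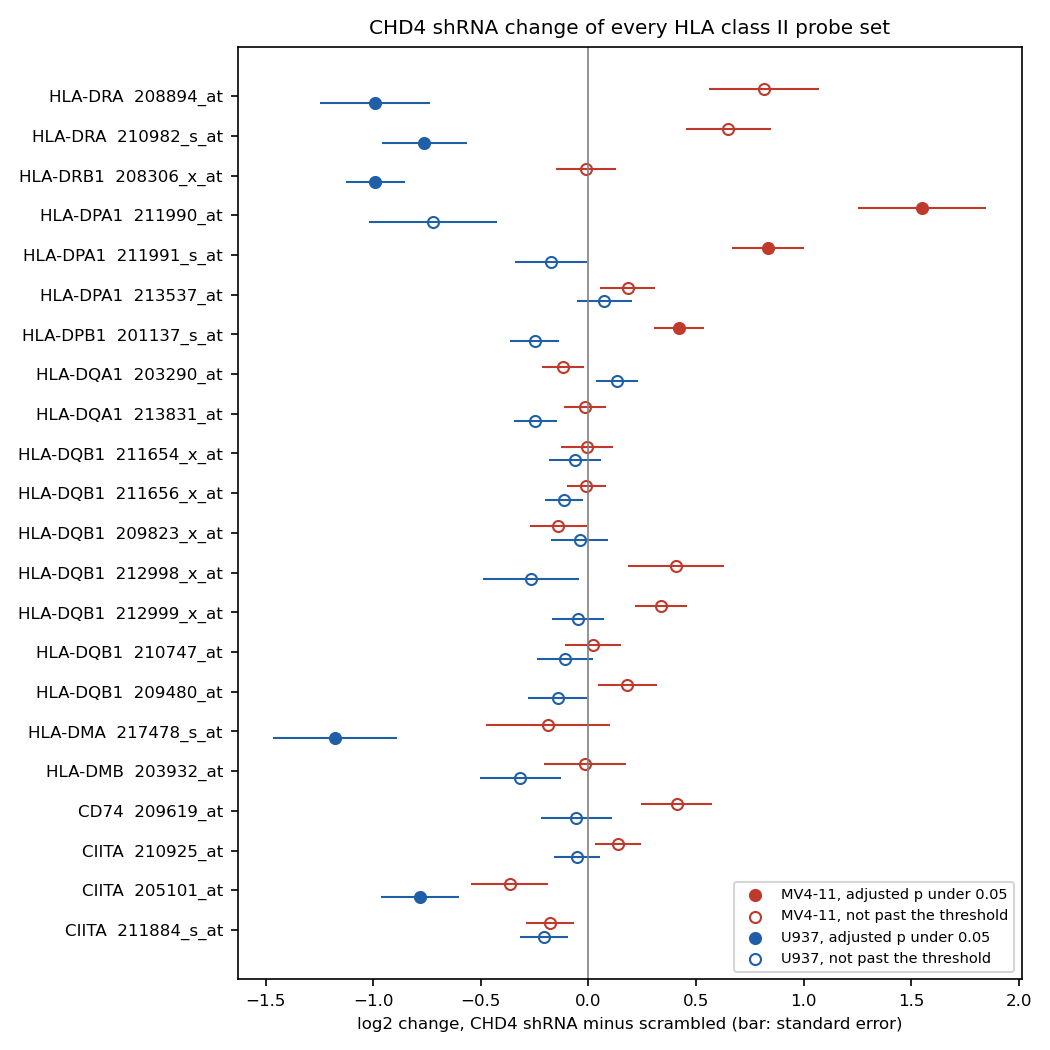
Log2 change with CHD4 shRNA minus scrambled (horizontal axis) for each of the 22 class II probe sets, MV4-11 in red above U937 in blue. Bars are standard errors from limma and filled points passed an adjusted p of 0.05. The 5 filled U937 points all lie below 0 and the 3 filled MV4-11 points all lie above 0.

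CIITA is the transactivator without which class II genes are barely transcribed. Probe set 205101_at read 5.62, 5.14 and 5.44 on the MV4-11 CHD4 shRNA arrays and 5.93, 5.88 and 5.49 on the MV4-11 scrambled arrays. It read 6.05, 5.58 and 5.33 on the U937 CHD4 shRNA arrays and 6.55, 6.43 and 6.33 on the U937 scrambled arrays. The U937 groups did not overlap, the MV4-11 groups did, and the U937 scrambled arrays were the highest of the 12. The change in U937 was -0.78 (SE 0.18), with a limma adjusted p of 0.0272. In MV4-11 it was -0.37 (SE 0.18), with a limma adjusted p of 0.257. The U937 call was lost, at adjusted p 0.0643 to 0.111, without U937 CHD4 shRNA replicate 2 or 3 or without any one of the U937 scrambled arrays. The U937 scrambled mean, 6.44, was the only group mean of 205101_at above the other-tissue range. The other CIITA probe sets changed less: 210925_at by 0.14 in MV4-11 and -0.05 in U937, and 211884_s_at by -0.18 and -0.21 in that order, none past the threshold. Their highest group means, 6.10 and 4.62, lay within that range.

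HLA-DRA encodes the alpha chain that all HLA-DR molecules share. Its probe set 208894_at read 7.56, 8.12 and 7.59 on the MV4-11 CHD4 shRNA arrays and 6.76, 6.75 and 7.31 on the MV4-11 scrambled arrays. Its U937 arrays read 7.90, 7.12 and 6.75 with CHD4 shRNA and 8.30, 8.39 and 8.05 with scrambled shRNA. In MV4-11 every CHD4 shRNA array was above every scrambled array, and in U937 every one was below, although ranked by mean (U937 scrambled, MV4-11 CHD4 shRNA, U937 CHD4 shRNA, MV4-11 scrambled) all neighbouring groups overlapped. The U937 change was -0.99 (SE 0.26, limma adjusted p = 0.0458). The MV4-11 change was 0.82 (SE 0.26) and did not pass, at a limma adjusted p of 0.0727.

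The second HLA-DRA probe set, 210982_s_at, gave the same order of groups. It read 7.35, 7.83 and 7.17 with CHD4 shRNA and 6.82, 6.68 and 6.90 with scrambled shRNA in MV4-11. The U937 arrays read 7.70, 7.29 and 6.82 with CHD4 shRNA and 8.06, 8.07 and 7.97 with scrambled shRNA. Neither pair of groups overlapped. The changes were 0.65 (SE 0.20) in MV4-11, with a limma adjusted p of 0.0664, and -0.76 (SE 0.20) in U937, with 0.0467.

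The HLA-DRA calls in U937 did not hold when single arrays were left out or the fit was changed. With only the compared groups in the fit the adjusted p was 0.0554 for 208894_at and 0.0535 for 210982_s_at. For 208894_at it was also 0.0502 with trend and robust fitting and 0.0701 with 1 replicate block shared by both lines. In U937 the adjusted p of 208894_at was 0.0833 to 0.165 without U937 CHD4 shRNA replicate 2 or 3 or any one U937 scrambled array, and up to 0.0624 without MV4-11 CHD4 shRNA replicate 1 or MV4-11 scrambled replicate 1 or 2. For 210982_s_at the same omissions gave 0.110 to 0.157 and up to 0.0667, and omission of MV4-11 scrambled replicate 3 lost that call too. In MV4-11, 208894_at passed at 0.0259 and 0.0421 without U937 CHD4 shRNA replicate 1 or 3, and at 0.0322 with the replicate block within each line. Likewise 210982_s_at passed at 0.0363 and 0.0265 without these arrays, at 0.0239 without MV4-11 CHD4 shRNA replicate 3, and at 0.0374 with that block. When only MV4-11 was blocked, the adjusted p was 0.0605 for 208894_at and 0.0555 for 210982_s_at.

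HLA-DRB1 encodes the main beta chain that pairs with HLA-DRA. Its probe set 208306_x_at read 8.14, 8.39 and 8.10 on the MV4-11 CHD4 shRNA arrays and 8.25, 8.17 and 8.25 on the MV4-11 scrambled arrays. On the U937 arrays it read 8.32, 8.22 and 7.94 with CHD4 shRNA and 9.26, 9.34 and 8.85 with scrambled shRNA. The U937 scrambled arrays stood above all others, and the remaining 3 groups overlapped with each other. The U937 change was -0.99 (SE 0.14), 1.99-fold lower, with a limma adjusted p of 0.00172, and it passed at 0.05 in all 22 alternatives of normalization, model, summary and arrays, but fell just short of a 2-fold change. The MV4-11 change was -0.01 (SE 0.14, 95% confidence interval -0.31 to 0.29, limma adjusted p = 0.970).

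The suffix x marks probe sets with probes that also match related sequences, and HLA-DRB genes are near-identical in places. Another 5 probe sets were annotated to a member together with other class II genes, such as HLA-DRB3, HLA-DRB4, HLA-DRB5 or HLA-DQA2, and were kept out of the 22. Of these, 3 fell in U937, where 2.65% of all probe sets did, and none changed in MV4-11. The 3 were 204670_x_at, 209312_x_at and 215193_x_at, all naming HLA-DRB1 and the last 2 also HLA-DQB1. Their U937 changes were -1.06, -1.23 and -1.39 (limma adjusted p 0.00149, 0.00111 and 0.000468). On 215193_x_at, which changed most, the MV4-11 arrays read 7.58, 7.91 and 7.43 with CHD4 shRNA and 7.44, 7.66 and 7.67 with scrambled shRNA, and overlapped. Its U937 arrays read 7.67, 7.25 and 7.17 with CHD4 shRNA and 8.80, 8.93 and 8.53 with scrambled shRNA, and did not. Which of the genes named gave these signals cannot be told apart on this array.

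HLA-DPA1, the alpha chain of HLA-DP, moved most in MV4-11. Probe set 211990_at read 6.45, 7.41 and 6.41 on the MV4-11 CHD4 shRNA arrays and 5.26, 5.32 and 5.04 on the MV4-11 scrambled arrays. In U937 it read 5.34, 4.84 and 4.46 with CHD4 shRNA and 5.91, 5.89 and 5.01 with scrambled shRNA. The MV4-11 CHD4 shRNA arrays were the highest of the 12, and the other 3 groups overlapped. The MV4-11 change was 1.55 (SE 0.30), 2.93-fold higher, with a limma adjusted p of 0.00856. It passed at 0.05 in all 22 such alternatives, with 1.22 (adjusted p = 0.0246) without MV4-11 CHD4 shRNA replicate 2, the array with the highest value. The mean of the gene's 3 probe sets gave a smaller rise, 0.86. The U937 change was -0.72 (SE 0.30, limma adjusted p = 0.221), and it passed with the replicate block within each line (adjusted p = 0.0281).

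The second HLA-DPA1 probe set, 211991_s_at, read 5.61, 6.32 and 5.90 with CHD4 shRNA and 4.98, 5.21 and 5.14 with scrambled shRNA in MV4-11. The U937 arrays read 5.26, 5.49 and 5.32 with CHD4 shRNA and 5.39, 5.82 and 5.38 with scrambled shRNA. It rose in MV4-11 by 0.83 (SE 0.17, limma adjusted p = 0.0108), passed at 0.05 in all 20 such alternatives that included it, and changed by -0.17 in U937. It did not reach an adjusted p of 0.01 or a 2-fold change, and its highest group mean, 5.94, lay within the other-tissue range. The third, 213537_at, stayed between 3.51 and 3.97 on all arrays. Its changes were 0.18 in MV4-11 and 0.07 in U937, neither past the threshold.

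HLA-DPB1, the beta chain of HLA-DP, read 5.64, 5.74 and 5.38 with CHD4 shRNA in MV4-11, against 5.0, 5.16 and 5.34 with scrambled shRNA. The U937 values were 5.65, 5.54 and 5.74 with CHD4 shRNA, against 5.93, 5.83 and 5.92 with scrambled shRNA. In both lines the groups stayed apart, in opposite order, and all group means, at most 5.89, lay within the other-tissue range. It rose in MV4-11 by 0.42 (SE 0.12, limma adjusted p = 0.0441), and the U937 change was -0.25 (SE 0.12, limma adjusted p = 0.291). The MV4-11 call held at 0.05 in 9 of 22 alternatives, and not with quantile normalization (0.0510), median centring (0.0549), the compared groups alone (0.140) or a shared replicate block (0.0686). It was lost, at adjusted p 0.0561 to 0.162, when any one array was left out other than replicate 3 of MV4-11 CHD4 shRNA, MV4-11 scrambled or U937 CHD4 shRNA.

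HLA-DQA1 and HLA-DQB1, the chains of HLA-DQ, showed no change past the threshold on probe sets of their own. Both HLA-DQA1 probe sets were dim, between 3.60 and 5.32 on all arrays, with changes from -0.12 to -0.02 in MV4-11 and from -0.25 to 0.13 in U937. The 3 brighter HLA-DQB1 probe sets, 211654_x_at, 211656_x_at and 209823_x_at, had group means between 6.51 and 7.19 and changes from -0.14 to -0.01 in MV4-11 and from -0.11 to -0.04 in U937. A difference between the 3 brighter and the 4 dimmer ones was not tested. The 4 dimmer ones changed by 0.02 to 0.41 in MV4-11 and by -0.27 to -0.05 in U937. Of these, 212998_x_at read 5.42, 6.10 and 5.07 with CHD4 shRNA and 4.82, 5.54 and 5.01 with scrambled shRNA in MV4-11. Its limma adjusted p there was 0.314, or 0.0316 when MV4-11 was blocked by replicate number. Each CHD4 shRNA array lay above the scrambled array of its number there.

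HLA-DMA and HLA-DMB form HLA-DM, the endosomal catalyst of peptide loading. HLA-DMA read 6.67, 7.04 and 6.68 with CHD4 shRNA in MV4-11, against 6.77, 6.92 and 7.26 with scrambled shRNA. In U937 it read 7.04, 6.85 and 6.08 with CHD4 shRNA, against 8.06, 8.31 and 7.13 with scrambled shRNA. The U937 groups were apart by a narrow gap, between 7.04 and 7.13, and replicate 3 was the lowest array in both. The U937 change was -1.18 (SE 0.29), 2.26-fold lower, with a limma adjusted p of 0.0371. It was lost, at adjusted p 0.0542 to 0.144, without U937 CHD4 shRNA replicate 2 or 3, U937 scrambled replicate 1 or 2, MV4-11 CHD4 shRNA replicate 1 or MV4-11 scrambled replicate 2, and at 0.0703 with only the compared groups in the fit. The MV4-11 change was -0.19 (SE 0.29, limma adjusted p = 0.778).

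HLA-DMB averaged 7.03 ± 0.20 with CHD4 shRNA and 7.05 ± 0.17 with scrambled shRNA in MV4-11 (SD, n = 3). In U937 it averaged 7.0 ± 0.14 with CHD4 shRNA and 7.31 ± 0.46 with scrambled shRNA (SD, n = 3). All 4 groups overlapped, and the U937 change of -0.32 (SE 0.19) had a limma adjusted p of 0.448. HLA-DMB thus did not pass where its partner did, and the difference between the partners was not tested.

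CD74, the invariant chain, read 8.16, 8.72 and 8.10 with CHD4 shRNA in MV4-11, against 7.68, 8.07 and 8.0 with scrambled shRNA. The U937 values were 8.74, 8.66 and 8.37 with CHD4 shRNA, against 8.75, 8.67 and 8.52 with scrambled shRNA. The MV4-11 groups were apart and the U937 groups overlapped. The MV4-11 change was 0.41 (SE 0.17) with a limma adjusted p of 0.160, 0.0315 when both lines were blocked by replicate number and 0.0562 when only MV4-11 was. The U937 change was -0.06 (SE 0.17, 95% confidence interval -0.41 to 0.30, limma adjusted p = 0.923).

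The difference between the lines in the CHD4 shRNA change was tested as an interaction. None of the 22 class II probe sets passed, as none of the 22215 did (0%), and the lowest adjusted p over all probe sets was 0.494 (limma). At an unadjusted p under 0.05, 8 of the 22 had a higher change in MV4-11 and none a lower one, where 2.27% and 2.13% of all probe sets did. The largest was HLA-DPA1 211990_at, at 2.27 (SE 0.42, 95% confidence interval 1.36 to 3.18, adjusted p = 0.494). HLA-DRA 208894_at followed at 1.81 (SE 0.36, 95% confidence interval 1.03 to 2.59, adjusted p = 0.535), and HLA-DRB1 was at 0.98 (SE 0.20, adjusted p = 0.535). By sign alone, 11 of the 22 probe sets were above 0 in MV4-11 and below 0 in U937, 9 were below 0 in both, 1 was above 0 in both and 1 had the reverse signs. With no call after adjustment, a difference between the lines was not shown for any member.

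Groups that do not overlap were counted as well. In MV4-11, 8 of the 22 had every CHD4 shRNA array above every scrambled array and 2 had every one below, against 10.8% and 13.0% of all probe sets. In U937, none lay above and 7 lay below, against 10.9% and 13.3%. Between the scrambled groups 1 lay higher and 8 lower on every MV4-11 array than on every U937 array, against 10.9% and 14.1%. Between the CHD4 shRNA groups the counts were 7 higher and 2 lower, against 10.6% and 14.4%.

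Between the lines with scrambled shRNA, 5 of the 22 probe sets were lower in MV4-11 than in U937 and none higher, where 2.08% of all probe sets were lower and 2.37% higher. They were HLA-DRA 208894_at, by -1.31 (SE 0.26, limma adjusted p = 0.0116), HLA-DRA 210982_s_at, by -1.23 (SE 0.20, 0.00364), HLA-DRB1, by -0.93 (SE 0.14, 0.00220), HLA-DPB1, by -0.73 (SE 0.12, 0.00338) and CD74, by -0.73 (SE 0.17, 0.0256). In all 5 the MV4-11 and U937 arrays did not overlap. CIITA 205101_at was also lower on every MV4-11 array, at -0.67 (SE 0.18), but had an adjusted p of 0.0556. It passed, at 0.0307 to 0.0383, without U937 CHD4 shRNA replicate 1 or 3 or MV4-11 CHD4 shRNA replicate 2. It also passed with only the compared groups in the fit (0.0178), with a shared replicate block (0.0190) and with trend and robust fitting (0.0493). HLA-DMA, at -0.85 (limma adjusted p = 0.124), passed at -1.20 without U937 scrambled replicate 3 (adjusted p = 0.0239). The HLA-DRA 208894_at call was lost, at adjusted p 0.0552 to 0.0606, without MV4-11 scrambled replicate 2 or U937 scrambled replicate 1 or 2. CD74 was lost, at 0.0510 to 0.113, without any one MV4-11 scrambled array or U937 scrambled replicate 1 or 2. Many class II chains, such as HLA-DRB1, HLA-DPB1 and HLA-DQB1, are highly polymorphic. For such chains a difference in level between 2 lines cannot be told apart from a difference in how their alleles match the probes. This comparison uses the same scrambled arrays as the comparisons within each line.

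With CHD4 shRNA in both lines, 3 of the 22 were higher in MV4-11 than in U937 and none lower, where 3.21% of all probe sets were higher and 2.34% lower. HLA-DPA1 211990_at was 3.67-fold higher, at 1.88 (SE 0.30, limma adjusted p = 0.00363), with the U937 CHD4 shRNA mean, 4.88, within the other-tissue range, where a fold may be compressed. HLA-DQB1 212998_x_at was higher by 1.19 (SE 0.22, limma adjusted p = 0.00919), with the U937 CHD4 shRNA arrays at 4.30 to 4.40, below every MV4-11 array. It was also higher on every MV4-11 array with scrambled shRNA, by 0.51 (SE 0.22, limma adjusted p = 0.231). The limits on dim signal, alleles and the x suffix apply to it. The 3 brighter HLA-DQB1 probe sets, at -0.003 to 0.25, did not pass (limma adjusted p 0.228 to 0.989). HLA-DQB1 209480_at, which read at most 4.35 on any array, was higher by 0.59 (SE 0.14, limma adjusted p = 0.0260), a call lost at 0.0628 to 0.114 without replicate 1 or 2 of either CHD4 shRNA group. The 2 HLA-DRA probe sets, at 0.50 and 0.18, and HLA-DRB1, at 0.05, did not pass (limma adjusted p 0.255 to 0.851). HLA-DPA1 211991_s_at, at 0.59, and HLA-DQB1 212999_x_at, at 0.38, passed only without MV4-11 CHD4 shRNA replicate 1 among the single-array omissions (adjusted p 0.0317 and 0.0431).

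**Figure D4:**
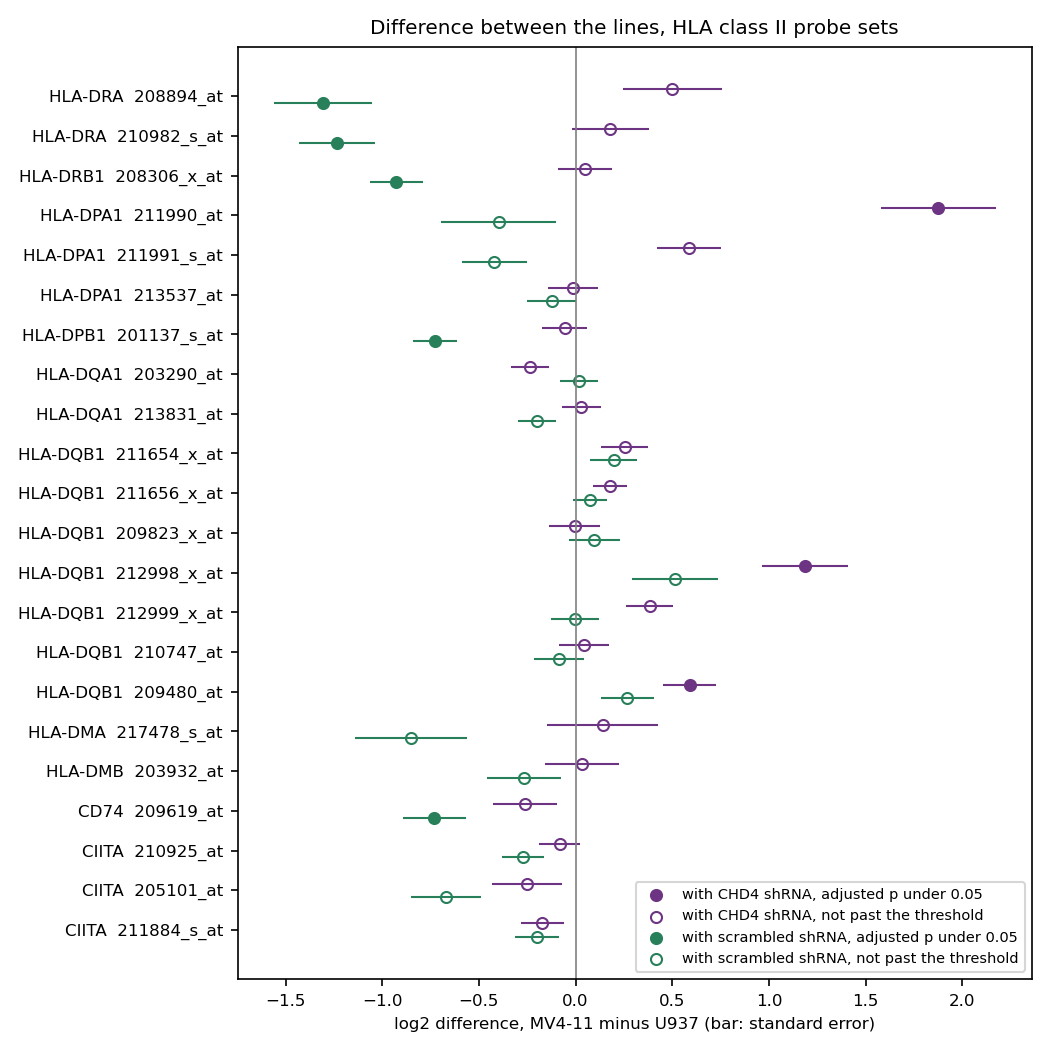
Log2 difference between the lines, MV4-11 minus U937 (horizontal axis), for each class II probe set, with CHD4 shRNA in purple above scrambled shRNA in green. Bars are standard errors from limma and filled points passed an adjusted p of 0.05. With scrambled shRNA 5 filled points lie below 0, and with CHD4 shRNA 3 filled points lie above 0.

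The genes around class II presentation were taken from lists, using for each gene the probe set brightest on average. Over the 11963 genes taken in this way, 4.39% rose and 4.36% fell in MV4-11, and 2.29% rose and 3.23% fell in U937. Of 17 measured promoter and transactivator factors, 1 fell in MV4-11, 1 fell in U937 and none rose. It was RFX5, the DNA-binding subunit of the RFX complex, in both lines. RFX5 averaged 9.88 with CHD4 shRNA and 10.30 with scrambled shRNA in MV4-11, a change of -0.42 (SE 0.09, limma adjusted p = 0.0162). In U937 it averaged 9.98 with CHD4 shRNA and 10.44 with scrambled shRNA, a change of -0.46 (SE 0.09, limma adjusted p = 0.0132). A second RFX5 probe set fell as well, by 0.49 in MV4-11 and by 0.52 in U937.

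The other subunits of the RFX complex did not pass. RFXANK changed by 0.57 in MV4-11 and 0.35 in U937 (limma adjusted p 0.0727 and 0.348), and RFXAP by 0.14 and -0.01 in that order. NFYA, a subunit of the Y box factor NF-Y, changed by 0.04 in MV4-11 and -0.43 in U937 without passing, but another of its 4 probe sets, 204109_s_at, fell in both lines (-0.54, limma adjusted p = 0.0210, and -0.74, limma adjusted p = 0.00566). CREB1, IRF1, IRF8 and SPI1, factors of the class II or CIITA promoters, changed by -0.25 to 0.35 in MV4-11 and by -0.17 to 0.39 in U937, none past the threshold on the brightest probe set. Of the 3 other CREB1 probe sets, 1 rose in MV4-11, by 0.45 (limma adjusted p = 0.0400).

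Of 5 other class II genes measured, 1 fell in U937 and none changed in MV4-11. It was HLA-DRB6, a pseudogene of the HLA-DRB group, at -0.57 (SE 0.14, limma adjusted p = 0.0375) in U937 and -0.04 in MV4-11, and its probe set also carries the x suffix. The other HLA-DRB6 probe set changed by -0.07 in MV4-11 and 0.10 in U937 without passing. Of 16 endosomal processing genes, 1 rose and 1 fell in MV4-11, and 1 fell in U937. CTSD, the lysosomal protease cathepsin D, fell in both lines (-0.71, limma adjusted p = 0.00287, in MV4-11 and -0.62, limma adjusted p = 0.00724, in U937). CTSZ, cathepsin Z, rose in MV4-11 by 0.49 (SE 0.13, limma adjusted p = 0.0432) and changed by 0.08 in U937, while its other probe set changed by -0.17 in MV4-11 without passing (limma adjusted p = 0.436). CTSS, the cathepsin that trims the invariant chain, changed by 0.30 in MV4-11 and 0.31 in U937 without passing. IFI30 was not measured by a probe set of its own.

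Of 18 genes of class II traffic and co-stimulation, 3 rose in MV4-11 and 1 in U937, and none fell. CD82, a tetraspanin of class II compartments, rose in both lines (0.63, limma adjusted p = 0.0193, in MV4-11 and 0.67, limma adjusted p = 0.0181, in U937). CD86, a co-stimulatory ligand for CD28, rose in MV4-11 by 0.59 (SE 0.12, limma adjusted p = 0.0117), with its other 2 probe sets at 0.74 and 1.95. In U937 it changed by 0.08 and those 2 by 0.44 and 0.70, without passing (limma adjusted p 0.814, 0.0981 and 0.249). RAB7A, a late endosome GTPase, rose in MV4-11 by 0.37 (SE 0.08, limma adjusted p = 0.0196). Of its 3 other probe sets, 1 rose there as well, by 0.57. Of 17 class I presentation genes, 2 rose in MV4-11, none changed in U937 and none fell. They were TAP1, a subunit of the peptide transporter, and PSMB9, an immunoproteasome subunit, both at 0.43 (limma adjusted p 0.0301 and 0.0293).

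Of 29 interferon response genes measured, 9 rose in MV4-11 and 3 in U937, and none fell. The median change was 0.86 in MV4-11 and 0.13 in U937. In MV4-11 the largest rises were those of IFI27 (3.21, SE 0.65, limma adjusted p = 0.0116), IFI44 (2.60, SE 0.35, limma adjusted p = 0.00123), IFI44L (2.31) and IFI6 (1.84), all interferon-induced genes. The other IFI44 probe set changed by 0.25 in MV4-11 and did not pass (limma adjusted p = 0.562). In U937 the genes that rose were CXCL11 (1.56), IFITM1 (1.5) and IRF7 (0.87), and of these IFITM1 (1.21) and IRF7 (0.91) rose in MV4-11 too. CXCL11 changed there by 1.18 without passing (limma adjusted p = 0.0699), but its other probe set rose by 0.84 in MV4-11 (limma adjusted p = 0.0122) and did not pass in U937. Taken as the median deviation from the scrambled mean, the list stood at 0.44, 1.35 and 0.31 on MV4-11 CHD4 shRNA replicates 1, 2 and 3, and at 0.04, 0.03 and 0.21 on the U937 ones. Replicate 2 was thus the highest MV4-11 CHD4 shRNA array for the interferon list. It was also the highest for HLA-DRA, HLA-DRB1, HLA-DPB1, HLA-DMA, HLA-DMB, CD74, and HLA-DPA1 211990_at and 211991_s_at. For CIITA 205101_at and HLA-DPA1 213537_at it was the lowest. Without replicate 2 HLA-DPA1 still passed, at 1.22 for 211990_at and 0.65 for 211991_s_at (limma adjusted p 0.0246 and 0.0318). The adjusted p of HLA-DPB1 was then 0.162. The part of the interferon response in the class II changes was not tested.

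**Figure D5:**
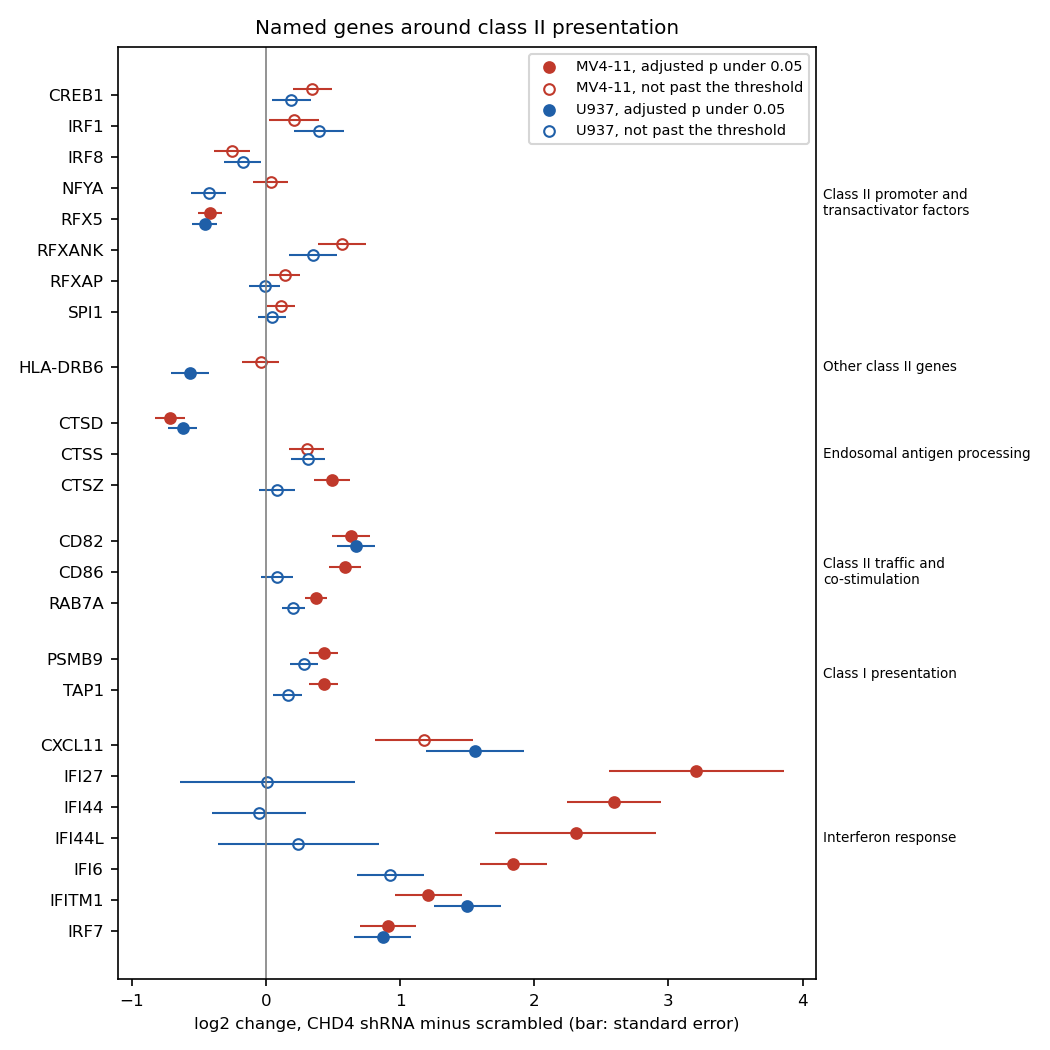
Log2 change with CHD4 shRNA minus scrambled (horizontal axis) for named genes of 6 lists around class II presentation, MV4-11 in red above U937 in blue. Bars are standard errors from limma and filled points passed an adjusted p of 0.05. RFX5 and CTSD are lower in both lines, and IFI27 has the largest MV4-11 value, 3.21.

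Likeness to HLA-DRA 208894_at was measured as Pearson's r over the 12 arrays after each line's own mean was removed, across 19063 probe sets with 1 gene symbol. Because both lines are pooled, such an r holds the shifts between the groups as well as the spread within them. The other HLA-DRA probe set ranked first, at r = 0.969, and HLA-DPA1 211990_at ranked 6, at 0.842. HLA-DPB1 was at 0.748, HLA-DRB1 at 0.743, HLA-DMA at 0.699, CD74 at 0.685 and CIITA 205101_at at 0.357. The remaining class II probe sets ran from -0.325 for HLA-DQA1 203290_at to 0.640 for HLA-DPA1 211991_s_at. Among these, HLA-DMB was at 0.377, HLA-DQB1 209823_x_at at 0.020 and CIITA 211884_s_at at 0.0001. The 5 other genes most like HLA-DRA 208894_at were ZNF268 (0.913), NOVA1 (0.847), OR1A1 (0.846), DOP1A (0.845) and MGAT3 (0.830). None of them passed the test in either line, and NOVA1, OR1A1 and DOP1A were dim, with group means of at most 4.32.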

How the data were processed

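The authors deposited 1 table of log2 values, and the submitters' processing notes name RMA. Its version is not given in the sources used here, nor whether 1 run covered all arrays. Array medians ran from 6.96 to 7.01, and a shift common to most transcripts is hidden by such scaling. Of 22277 probe sets, 62 controls were left out and 22215 tested, with no filter on dim ones. Of these, 19064 had 1 gene symbol in the platform annotation, 1043 several and 2108 none listed.

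One limma 3.58.1 model (R 4.3.3) with 4 group means was fitted to all 12 arrays, followed by eBayes with 8 residual and 4.86 prior degrees of freedom. Adjustment was by Benjamini-Hochberg over all tested probe sets, with the threshold at 0.05. The code was tested on simulated data. Every adjusted p is from limma. An exact permutation test of 3 arrays against 3 cannot go below 0.1. The number of arrays limits the precision.

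Every class II probe set is included, some dim ones only by range in the text and singly in the figures of changes. From each list were named, in each line, up to 4 genes past the threshold with the largest changes, and a few genes whatever their result. Members and lists were chosen with earlier results of these data known.

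Arrays with the same replicate number in the titles deviated together in MV4-11 (r = 0.43, 0.47 and 0.49) and were taken as paired. In U937 the values were 0.01, 0.34 and 0.36, and with replicate 1 so low the numbers were not taken to pair the arrays. Arrays with different numbers gave -0.36 to -0.03 in MV4-11 and -0.41 to 0.17 in U937. The reported fit has no replicate block, so its MV4-11 results do not use the pairing. Blocks entered only as alternatives. Alternatives were other normalizations, variance models, gene summaries, thresholds and replicate blocks, and omission of dim probe sets or of single arrays.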

Additional observations from a re-analysis of the deposited data

Results flagged for a closer look

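For 3 probe sets every CHD4 shRNA array lay above every scrambled array in MV4-11 and below every one in U937. They were HLA-DRA 208894_at, where the MV4-11 change exceeded the U937 change by 1.81, HLA-DRA 210982_s_at, where it did by 1.41, and HLA-DPB1, where it did by 0.67. The difference itself was tested only in the limma interaction, where it did not pass (adjusted p 0.535, 0.535 and 0.782). Groups of 3 arrays were too small for a check of single outlying arrays.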

How the results depend on the processing

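No call reversed its direction under any alternative. Probe sets past the threshold in U937 (5 as reported) numbered 1 at adjusted p under 0.01, 1 with at least a 2-fold change, 3 with 1 probe set per gene, 3 after averaging each gene's probe sets and 2 when just the compared groups were fitted. In MV4-11 (3 as reported) they numbered 1 at adjusted p under 0.01, 1 with at least a 2-fold change and 7 when each line had its own replicate block. The replicate block in MV4-11 alone, added after seeing the data, gave 4 in MV4-11 and 5 in U937, and the block shared by both lines gave 2 in MV4-11 and 4 in U937. Over all 22215 probe sets, calls numbered 1002 in U937 and 1659 in MV4-11 as reported. They numbered 2151 and 3700 with the block within each line, 1626 and 2912 with MV4-11 alone blocked, and 923 and 1501 with the shared block. In U937 they numbered 1086 when just the compared groups were fitted. With 1 probe set per gene they numbered 761 of 11963 there, and 728 after averaging. The class II counts of MV4-11 minus U937 scrambled (5 as reported) were 3 at adjusted p under 0.01 and 2 with at least a 2-fold change. Those of MV4-11 minus U937 CHD4 shRNA (3 as reported) were 5 after quantile normalization, 1 with 1 probe set per gene and 1 without the dimmest 25% of probe sets. Calls over the whole array were 1232 as reported and 1208, 771 of 11963 and 1183 of 16661 in that order. Leaving out 1 array at a time gave class II counts of 1 to 5 in U937 and 2 to 5 in MV4-11. They were 3 to 6 between the scrambled groups and 2 to 4 between the CHD4 shRNA groups. Over all probe sets the counts ran from 396 to 1210, 546 to 3143, 421 to 1280 and 424 to 1788 in that order. The class II count was 1 in U937 without U937 scrambled replicate 1 or 2 or U937 CHD4 shRNA replicate 2 or 3. Over all probe sets these omissions left 465, 551, 396 and 493 in that order. The class II count there was 2 without U937 scrambled replicate 3, MV4-11 CHD4 shRNA replicate 1 or MV4-11 scrambled replicate 2. It was 3 without MV4-11 scrambled replicate 1. Over all probe sets these omissions left 497, 789, 830 and 916. In MV4-11 the class II count was 5 without U937 CHD4 shRNA replicate 3, with 1876 over all probe sets. Between the scrambled groups it was 3 without MV4-11 scrambled replicate 2 or U937 scrambled replicate 1 or 2. Over all probe sets these left 448, 429 and 421. The interaction gave 0 class II calls in all of these. The cause of these shifts was not tested. Apart from the stricter thresholds, calls kept under every alternative numbered 1 of 5 in U937 (HLA-DRB1), 2 of 3 in MV4-11 (HLA-DPA1), 3 of 5 between the scrambled groups and 2 of 3 between the CHD4 shRNA groups.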

Other observations

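Some markers of other cell types moved in both lines. CD2, a T and NK cell receptor, rose by 1.77 in MV4-11 and 1.40 in U937 (limma adjusted p 0.000148 and 0.000735), and CD79B, a B cell receptor subunit, rose by 1.34 and 0.60 (limma adjusted p 0.000410 and 0.0404). CD209, a dendritic cell lectin, rose by 0.78 in MV4-11 and 0.73 in U937 (limma adjusted p 0.00291 and 0.00504), while its other probe set changed by -0.15 and 0.03 in that order without passing. PAX5, a B lineage factor, fell in U937 (-0.90, limma adjusted p = 0.00297) and changed by -0.31 in MV4-11, while its other probe set changed by 0.01 in U937. ITGAM, a myeloid integrin subunit, rose in MV4-11 by 1.41 (limma adjusted p = 0.00212) and changed by 0.66 in U937, while its other probe set changed by -0.11 and -0.02 in that order. Some other markers were dim, with group means of at most 4.72 for MS4A1 and 3.58 for CR2, B cell markers, and 3.46 for LAMP3 and 3.93 for CCR7, dendritic cell markers. Others were not, with FLT3 at 9.99 to 10.05 in MV4-11 and NKG7 at 10.88 to 11.09 over the 4 groups. Of the lists, 1 of 5 B cell, 1 of 4 T and NK cell and 1 of 6 dendritic cell markers rose in MV4-11, and 1 of each in U937. Of all genes, 4.39% rose in MV4-11 and 2.29% in U937. In U937, 1 of the 5 B cell markers fell, where 3.23% of all genes did. The median change of these lists was between -0.09 and 0.02 in MV4-11 and between 0.04 and 0.13 in U937.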
